A study of Homo sapiens with 4 samples.

Results

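Kinesins are motor proteins that hydrolyse ATP to step along microtubules, and their genes carry symbols that begin with KIF. Some assemble and elongate the mitotic spindle, move chromosomes and build the midzone at which a dividing cell is cut. Others carry vesicles, mitochondria, endosomes or ciliary components through the cell in interphase. Genes of the first kind are known to be transcribed mainly in the G2 and M phases of the cell cycle, whereas carriers such as KIF5B are expressed in most cells whether or not they divide. In proliferating carcinoma cells both kinds are present.

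The superfamily was taken from the table by symbol, as KIF followed by a number with an optional letter and digit, or KIFC followed by a digit. This gave 42 of the 57820 genes, of which 14 were classed by textbook role as mitotic, 15 as transport, 6 as ciliary and 7 as of mixed or other role. The libraries were made from 786-0, an established human renal carcinoma line, carrying a non-targeting short hairpin RNA (shNT, 2 libraries) or a hairpin against GLUD1, the mitochondrial glutamate dehydrogenase (shGLUD1, 2 libraries). All 4 cultures, grown in DMEM with serum, had been without amino acids for 12 h, so no fed cells stand beside them. The labels name a single line. They do not say whether the number after shGLUD1 marks a replicate or a different hairpin. Nor do they say that replicates were separate cultures, so p-values measure spread among libraries that could be technical repeats.

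Values are TPM, a transcript abundance scaled for transcript length and to the total of each library. TPM keep no read totals, so the depth is unknown. GLUD1 itself was at 18.09 and 17.43 TPM in shNT replicates 1 and 2 and at 13.52 and 19.82 TPM in shGLUD1 replicates 1 and 2. The second library labelled shGLUD1 was thus above both controls, and shGLUD1 below means the libraries with that label. The log2 fold change of GLUD1 was -0.11 (limma adjusted p = 0.631), or -0.83 (adjusted p = 0.00233) once libraries were rescaled to a common median ratio, and GLUD2, its near-identical copy, lay between 0.02 and 0.2 TPM. Of the renal carcinoma line's markers VIM was at 890.77 TPM or more and KRT8 at 41.51 TPM or more in every library, PAX8 was at 5.18 to 8.75 TPM, and KRT18 was low (0.66 to 1.87 TPM). NDUFA4L2 was also low (2.29 to 2.86 TPM), and CA12 was at 2.67 and 2.42 TPM in shNT and at 12.62 and 15.43 TPM in shGLUD1. EPAS1 was at 8.86 to 26.12 TPM and CDH2 at 2.78 to 9.86 TPM. The leukocyte genes PTPRC and CD3E were at 0.05 TPM or less, the endothelial genes VWF and CDH5 at 0.11 TPM or less, and the erythroid genes HBB and HBA1 at 0.73 TPM or less. The 3 fibroblast genes summed to 2.77 and 1.79 TPM in shNT and to 5.69 and 6.14 TPM in shGLUD1, and the 3 leukocyte genes to 1.12 and 1.24 TPM and to 0.04 and 0.52 TPM. The share of TPM from mitochondrial genome genes was 0.896% and 0.952% for shNT, against 1.91% and 1.63% for shGLUD1. The part of these differences in the kinesin results was not tested.

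Most genes were higher in shGLUD1, so every kinesin is read against that. Fold changes are on log2(TPM + 1), which understates the change of low genes. Over the 12524 genes averaging 1 TPM or more, the median was 0.63 log2 units higher, and the limma test with Benjamini-Hochberg adjustment called 56.7% of them higher at an adjusted p under 0.05. Rescaled to a common median ratio, 23.2% were called higher and 27.9% lower. Each kinesin is therefore given on TPM and, as its rescaled value, relative to the typical gene.

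Mitotic kinesins ranged widely, from KIF20A, among the most increased of all genes, to KIF20B, close to the typical gene. Of 14, 11 passed the filter on low values, and 10 of these rose on TPM while none fell, beside 56.7% of all genes called higher. Rescaled, 7 were higher and none lower, beside 23.2% and 27.9% of all genes. Their log2 fold changes ran from 0.61 to 3.0, with a median of 1.7 on TPM and 1.24 rescaled. KIF11, KIF18A and KIF18B passed the filter only through their shGLUD1 values, so the counts and medians over tested members describe those members and are no support for a change of the class. Without a filter 13 of the 14 could be fitted and 8 were called higher, beside 24.1% of all genes fitted.

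**Figure D1:**
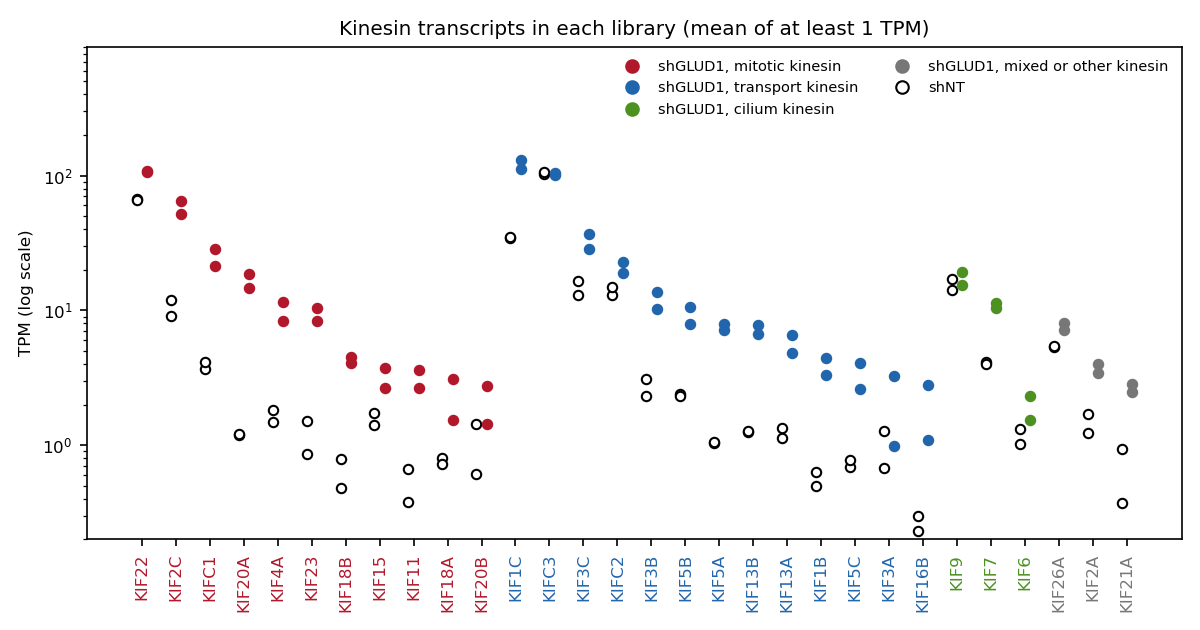
TPM of each kinesin with a mean of at least 1 TPM, on a log axis, one point per library; open circles are the 2 shNT libraries and filled circles the 2 shGLUD1 libraries, coloured by class. KIF20A moves from about 1.2 to 14.67 and 18.63 TPM, whereas the 4 points of KIFC3 lie side by side between 100.51 and 105.57 TPM.

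KIF20A (chr5:138178719-138187715 in GENCODE 29 on GRCh38), which carries the chromosomal passenger complex to the spindle midzone, had the largest change of the superfamily. It was at 1.19 and 1.20 TPM in shNT and at 14.67 and 18.63 TPM in shGLUD1, a 13.9-fold ratio of means. Its log2 fold change of 3.0, with SE 0.22 and a limma adjusted p of 4.5e-06 (rescaled 2.42), was number 10 among the 12524 genes. KIF23, the motor of the centralspindlin complex, was at 0.86 and 1.51 TPM in shNT and at 8.40 and 10.39 TPM in shGLUD1 (log2 fold change 2.26, rescaled 1.7). The groups did not overlap for either of these kinesin-6 motors, both of which act in cytokinesis. KIF20A shares exonic bases with BRD8 (2.42 to 7.50 TPM) and CDC23 (4.41 to 12.09 TPM), so a few of its reads are uncertain.

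The third member of that family, KIF20B, which acts late in cytokinesis, did not pass the test. It stood at 1.44 and 0.61 TPM in shNT and at 1.43 and 2.74 TPM in shGLUD1, so its groups overlapped (log2 fold change 0.61 with SE 0.31, limma adjusted p = 0.103; rescaled 0.16). Within each library KIF20A TPM was 0.826 and 1.97 times KIF20B TPM in shNT and 10.3 and 6.8 times in shGLUD1. A ratio within a library does not depend on how libraries are scaled, and here the ratios of the groups did not overlap, though they were not tested. Without the first shNT library KIF20B was called higher (0.90, limma adjusted p = 0.0389).

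KIFC1, a minus-end motor that gathers spindle poles and extra centrosomes, was at 3.66 and 4.16 TPM in shNT and at 21.29 and 28.29 TPM in shGLUD1 (log2 fold change 2.38 with SE 0.20, limma adjusted p = 9.22e-06; rescaled 1.7). KIF2C, the microtubule depolymerase MCAK of the centromere, was at 12.02 and 9.06 TPM in shNT and at 52.32 and 64.29 TPM in shGLUD1 (2.37, SE 0.17, limma adjusted p = 3.85e-06; rescaled 1.64). KIF4A, which binds PRC1 at the midzone, was at 1.83 and 1.49 TPM in shNT and at 8.37 and 11.60 TPM in shGLUD1 (2.03, rescaled 1.44). All 3 had their shGLUD1 libraries above both shNT libraries, as did 69.9% of all genes tested. KIF4A shares up to 77 exonic bases with PDZD11 on the other strand, which was at 160.39 to 196.84 TPM, so some of its reads are uncertain if counting ignored strand. The same holds for KIFC1, which shares up to 424 exonic bases with the pseudogene RPL12P1 on the other strand (2.14 to 3.96 TPM).

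KIF11, also called Eg5, slides spindle poles apart. It was low in shNT (0.38 and 0.67 TPM) and at 2.67 and 3.61 TPM in shGLUD1 (log2 fold change 1.44, rescaled 1.01). KIF18B, which limits the growth of astral microtubules, was at 0.79 and 0.48 TPM in shNT and at 4.09 and 4.53 TPM in shGLUD1 (1.7, rescaled 1.24). Both rose by the limma test on either scale. KIF18A, its paralogue that dampens chromosome oscillation, was at 0.80 and 0.73 TPM in shNT and at 1.54 and 3.08 TPM in shGLUD1. It rose on TPM (0.87, SE 0.28, adjusted p = 0.0199), but the rescaled value of 0.43 did not pass (adjusted p = 0.162), nor did its TPM value without the second shNT library (0.84, 0.0655) or the second shGLUD1 library (0.53, 0.0824); limma adjusted p-values follow the commas. KIF18A shares up to 61 exonic bases with METTL15 on the other strand, at 2.56 to 4.94 TPM.

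KIF22 (chr16:29790719-29805385), which pushes chromosome arms towards the metaphase plate, was the most abundant mitotic kinesin and lay near the typical gene on TPM (0.68 against a median of 0.63). It was at 67.50 and 66.27 TPM in shNT and at 108.05 and 106.91 TPM in shGLUD1, groups that did not overlap. On TPM it rose (log2 fold change 0.68 with SE 0.11, limma adjusted p = 0.000317), while its rescaled value was -0.08 (adjusted p = 0.609). Quantile normalization (0.34, limma adjusted p = 0.0269) and removal of length and GC trends (0.27, adjusted p = 0.0312) kept it higher. KIF22 shares up to 561 exonic bases with AC009133.4 on the other strand, for which no TPM is given. KIF15, which can share the work of KIF11 in spindle bipolarity, was at 1.42 and 1.72 TPM in shNT and at 2.64 and 3.75 TPM in shGLUD1. Its TPM call (0.70, limma adjusted p = 0.0321) was lost after rescaling (0.17, adjusted p = 0.51) and on leaving out the first shNT library (0.61, 0.199), the second (0.78, 0.0956) or the second shGLUD1 library (0.50, 0.107). By log2 fold change KIF22 was number 5924 of the 12524 genes and KIF20B number 6389.

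The remaining 3 mitotic members were under a mean of 1 TPM. KIF14, which recruits citron kinase to the midbody, was at 0.07 and 0.04 TPM in shNT and at 0.31 and 0.58 TPM in shGLUD1. KIF2B was listed at 0 in every library, and KIF4B, an intronless copy of KIF4A, at 0.03 TPM or less. In bulk RNA, more cells in mitosis and more RNA per mitotic cell cannot be told apart.

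The promoters of these genes are shown because many mitotic kinesin genes are known to carry a shared element, which can be set beside how much each moved. The cell cycle genes homology region (CHR) is bound by LIN54 of the MuvB complex, which represses such genes in resting cells and, with MYBL2 and FOXM1, activates them before mitosis. A CCAAT box, the site of NF-Y, often lies a few helical turns upstream. The sequences run from 100 bases before to 15 bases after the RefSeq transcription start (GRCh38.p14, plus strand for all 7), in lower case with CHR letters (TTTGAA or TTCGAA) and CCAAT in capitals, on either strand. They lie at chr5:138179012-138179126 (KIF20A), chr6:33391723-33391837 (KIFC1), chr15:69414249-69414363 (KIF23), chrX:70290004-70290118 (KIF4A), chr10:92593030-92593144 (KIF11), chr16:29790651-29790765 (KIF22) and chr17:4997850-4997964 (KIF1C, a transport kinesin, for contrast).
KIF20A: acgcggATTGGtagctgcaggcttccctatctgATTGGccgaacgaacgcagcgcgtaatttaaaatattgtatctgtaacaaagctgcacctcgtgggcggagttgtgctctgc
KIFC1: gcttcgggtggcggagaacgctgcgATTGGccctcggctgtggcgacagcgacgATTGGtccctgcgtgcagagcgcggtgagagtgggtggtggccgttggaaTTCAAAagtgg
KIF23: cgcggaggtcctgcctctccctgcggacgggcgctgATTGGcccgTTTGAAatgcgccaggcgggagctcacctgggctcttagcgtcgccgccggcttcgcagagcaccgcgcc
KIF4A: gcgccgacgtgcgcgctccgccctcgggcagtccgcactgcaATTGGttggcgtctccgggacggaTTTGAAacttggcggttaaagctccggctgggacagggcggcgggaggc
KIF11: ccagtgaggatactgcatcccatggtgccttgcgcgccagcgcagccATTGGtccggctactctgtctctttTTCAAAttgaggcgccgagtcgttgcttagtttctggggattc
KIF22: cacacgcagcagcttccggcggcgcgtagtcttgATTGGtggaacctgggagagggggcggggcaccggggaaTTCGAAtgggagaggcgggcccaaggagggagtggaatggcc
KIF1C: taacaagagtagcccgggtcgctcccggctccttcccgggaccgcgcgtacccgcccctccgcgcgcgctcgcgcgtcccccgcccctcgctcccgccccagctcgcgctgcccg

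CHR letters began within 60 bases before and 30 bases after a listed start in 11 of 14 mitotic kinesins (78.6%), and in 5.87% of the 27305 genes with a promoter of the same length in the RefSeq table. None of the 11 transport kinesins in that table held them there. KIF5B held them at position -140 from its start, which made 1 of 11 (9.09%) against 19.5% of all genes over the whole 300 bases. CCAAT lay in 11 of 14 mitotic promoters (78.6%), 4 of 11 transport promoters (36.4%) and 39.7% of all genes, counting both strands and any listed start. In the sequences above the CHR letters begin at position -55 in KIF23, -34 in KIF4A, -28 in KIF11, -27 in KIF22 and 5 in KIFC1, counted from the start.

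These letters did not divide the mitotic kinesins by how much they moved. KIF20A and KIF2C, with rescaled log2 fold changes of 2.42 and 1.64, have no such letters in their listed 300 bases. KIF22, KIF15, KIF18A and KIF20B have them near the start and had rescaled values of -0.08, 0.17, 0.43 and 0.16, none of which passed the limma test. Only TTTGAA and TTCGAA were searched as CHR letters, so a CHR with other letters was not counted. A match is a description of the sequence and not a bound site, and 8 of the 42 kinesins, among them KIF5A, KIFC2 and KIFC3, had no entry.

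**Figure D2:**
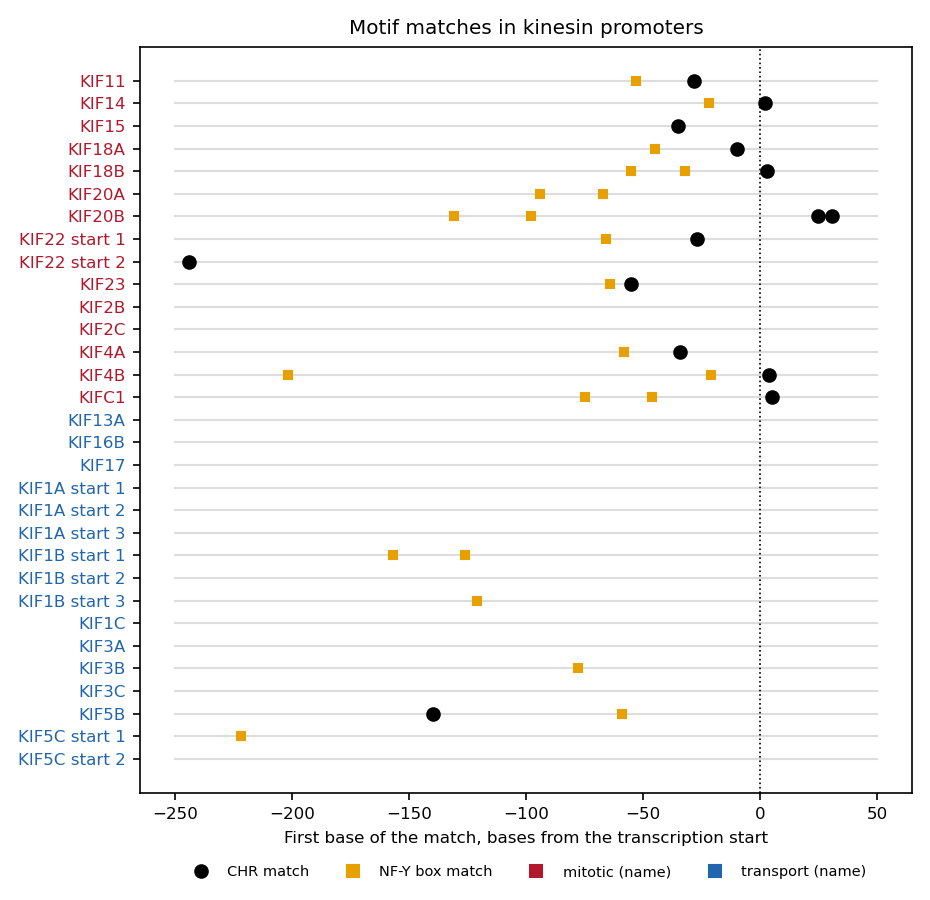
Position of each CHR match (black circles) and NF-Y box, CCAAT, match (orange squares) from 250 bases before to 50 bases after each RefSeq start of the mitotic (red names) and transport (blue names) kinesins; the dotted line is the start. Each mitotic kinesin but KIF20A, KIF2B and KIF2C has a CHR match near a start, with that of the second KIF22 start far upstream; among transport kinesins only KIF5B has a match.

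Among transport kinesins, KIF1C and KIF5B rose while KIFC3, the most abundant in shNT, did not. Of 15, 13 passed the filter, 11 rose on TPM and none fell, beside 56.7% of all genes called higher, and 11 had both shGLUD1 libraries above both shNT libraries, beside 69.9%. Rescaled, 9 were higher and 1 lower, beside 23.2% and 27.9%. The median log2 fold change was 1.57 on TPM and 0.98 rescaled. KIF1B, KIF3A, KIF5C and KIF16B passed the filter only through shGLUD1, so these counts too describe the tested members only. Without a filter all 15 could be fitted and 9 were called higher, beside 24.1%.

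KIF1C (chr17:4997948-5028401), a kinesin-3 motor of vesicles and integrin-bearing endosomes, was the most abundant transport kinesin that rose. It was at 34.37 and 34.95 TPM in shNT and at 111.08 and 130.20 TPM in shGLUD1, a 3.48-fold ratio of means with no overlap (log2 fold change 1.77 with SE 0.12, limma adjusted p = 3.03e-06; rescaled 1.02). Its paralogue KIF1B, a carrier of mitochondria and synaptic vesicle precursors, was at 0.50 and 0.63 TPM in shNT and at 3.32 and 4.45 TPM in shGLUD1 (1.63, rescaled 1.19). KIF1C therefore outweighed KIF1B 68.7 and 55.5 times in shNT and 33.5 and 29.3 times in shGLUD1. KIF1A, the neuronal member of this group, was at 0.14 TPM or less. KIF1B shares up to 293 exonic bases on the same strand with RN7SL731P (0 to 2.61 TPM), so some of the reads of KIF1B are uncertain.

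Other kinesin-3 motors were low in shNT. KIF13B, a carrier of membrane cargo towards the cell edge, was at 1.26 and 1.28 TPM in shNT and at 6.66 and 7.77 TPM in shGLUD1 (log2 fold change 1.85, rescaled 1.30). KIF13A, which moves recycling endosomes, was at 1.13 and 1.33 TPM in shNT and at 4.81 and 6.54 TPM in shGLUD1 (1.57, rescaled 1.03). Both passed the limma test on either scale. KIF13B shares up to 298 exonic bases with AC108449.3 on the other strand (1.03 to 4.01 TPM), so some of its reads are uncertain if counting ignored strand. KIF16B, which positions early endosomes, was at 0.30 and 0.23 TPM in shNT and differed between shGLUD1 libraries (1.09 and 2.79 TPM; 1.15, rescaled 0.82).

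Of the heavy chains of kinesin-1, the classical carrier of organelles, KIF5B and KIF5A rose on TPM and after rescaling by the limma test. KIF5C did too, but had passed the filter only through shGLUD1. KIF5B, the ubiquitous heavy chain, was at 2.38 and 2.32 TPM in shNT and at 7.88 and 10.63 TPM in shGLUD1 (log2 fold change 1.60, rescaled 0.98). KIF5A, best known from neurons, was at 1.03 and 1.05 TPM in shNT and at 7.11 and 7.93 TPM in shGLUD1 (2.06, SE 0.23, limma adjusted p = 4.44e-05; rescaled 1.52), the largest log2 fold change of the transport class on this scale. By the ratio of mean TPM KIF16B (7.32) stood above KIF5A (7.23). KIF5A stood at 0.433 and 0.453 of KIF5B TPM in shNT and at 0.902 and 0.746 in shGLUD1. KIF5C, also enriched in neurons, was at 0.69 and 0.77 TPM in shNT and at 2.60 and 4.07 TPM in shGLUD1 (1.30, rescaled 0.84), and its ratio to KIF5B overlapped between groups (0.29 and 0.332 against 0.33 and 0.383).

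Kinesin-2 is built from KIF3A with KIF3B or KIF3C and moves ciliary trains and vesicles. KIF3B was at 2.30 and 3.07 TPM in shNT and at 10.25 and 13.78 TPM in shGLUD1 (log2 fold change 1.81, rescaled 1.18). KIF3C was at 16.42 and 13.04 TPM in shNT and at 28.40 and 36.66 TPM in shGLUD1 and rose on TPM (1.09, limma adjusted p = 0.000387), but its rescaled value of 0.36 did not pass (adjusted p = 0.0736). KIF3A, the subunit common to both, was at 1.27 and 0.68 TPM in shNT and at 0.99 and 3.23 TPM in shGLUD1. Its groups overlapped and it did not pass (0.57, SE 0.35, limma adjusted p = 0.172), whereas without shGLUD1 replicate 1 it did (1.12, adjusted p = 0.0183). KIF3C TPM was 7.14 and 4.25 times KIF3B TPM in shNT and 2.77 and 2.66 times in shGLUD1. KIF17, a ciliary and dendritic carrier, was at 0.36 to 0.55 TPM in all 4 libraries.

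KIFC3 (chr16:57758217-57863053), a minus-end motor of the Golgi and of cell junctions, was the most abundant kinesin in shNT and did not rise. It was at 103.17 and 105.57 TPM in shNT and at 100.51 and 105.32 TPM in shGLUD1, with overlapping groups (log2 fold change -0.02 with SE 0.10, limma adjusted p = 0.872). Rescaled, it came out lower by the limma test (-0.78, adjusted p = 0.00085), as did quantile normalization (-0.32, adjusted p = 0.0239). KIFC2, its paralogue of dendrites and axons, was at 12.91 and 15.01 TPM in shNT and at 23.0 and 19.06 TPM in shGLUD1 (0.56, rescaled -0.16). Its TPM call (adjusted p = 0.0142) was lost on leaving out the first shNT library (0.45, limma adjusted p = 0.155) or the first shGLUD1 library (0.43, 0.0717).

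**Figure D3:**
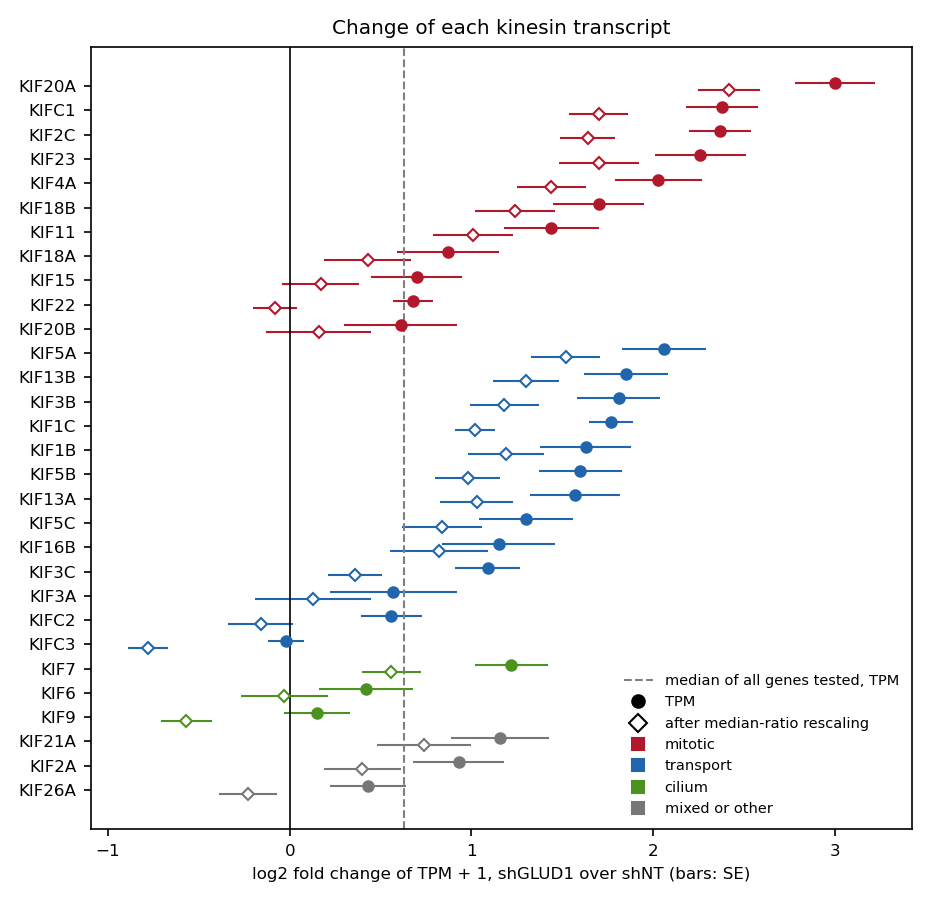
Log2 fold change of TPM + 1, shGLUD1 over shNT, for each tested kinesin with its SE; circles are TPM and diamonds are values after median-ratio rescaling, and the dashed line is the median of all genes tested on TPM (0.63). KIF20A leads at 3.0 and 2.42, and KIFC3 lies lowest at -0.02 and -0.78.

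Set side by side, the classes differed less in their middle than in their extremes. The median log2 fold change of mitotic kinesins exceeded that of transport kinesins by 0.13, which was 0.34 without shNT replicate 1 and -0.01 without shNT replicate 2. Taking out trends with transcript length and GC content gave 1.04 for mitotic and 0.62 for transport kinesins, a difference of 0.42, and for genes averaging 5 TPM or more the difference was 0.97 over 6 members of each class. With KIF2A counted as mitotic the difference was 0.0, and with kinesin-2 left out of transport it was 0.12. The order of the class medians therefore depended on the library left out and on the class given to KIF2A, and it was not tested. At the top, KIF20A, KIFC1, KIF2C and KIF23 each had a larger log2 fold change than KIF5A, the highest transport kinesin on log2(TPM + 1), and so they did rescaled. This order depended on the pseudocount: with 0.1 TPM, KIF20A (3.68) and KIF23 (2.93) stood above KIF5A (2.74), and KIFC1 (2.62) and KIF2C (2.46) below it.

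Shares within a library are free of its scaling. Mitotic kinesins held 30.8% and 29.3% of summed kinesin TPM in shNT and 39.1% in each shGLUD1 library (means 30.1% ± 1.05 and 39.1% ± 0.0095, SD, n = 2 each). Transport kinesins held 59.7% and 60.2% in shNT and 53.3% and 53.4% in shGLUD1. These sums rest on 2 abundant genes. KIFC3 and KIF22 together held 57.2% and 57.3% of kinesin TPM in shNT and 36.1% and 32.1% in shGLUD1.

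With those genes taken out of the pool, a choice made after seeing the data, the mitotic share was still larger in shGLUD1 than in shNT. The other mitotic kinesins held 19.1% and 16.9% of the remaining TPM in shNT and 31.9% and 33.7% in shGLUD1. Much of this was KIF2C, with 12.0 and 9.06 of their 24.5 and 21.7 TPM in shNT. In shGLUD1 it had 52.3 and 64.3 of their 118 and 152 TPM. The other transport kinesins held 58.7% and 58.4% in shNT and 56.2% and 55.2% in shGLUD1, slightly less. The shares below are again of the whole pool, in which KIFC3 had a smaller share in shGLUD1 though its TPM hardly differed. Shares were smaller in shGLUD1 for KIF22 too (22.6% and 22.1% against 18.7% and 16.2%). The same held for kinesin-9 (5.17% and 6.02% against 3.07% and 3.15%), kinesin-11 and kinesin-12. By family, kinesin-3 went from 12.6% and 12.8% to 22.0% and 23.1%, kinesin-13 (mainly KIF2C) from 4.56% and 3.71% to 9.81% and 10.5%, and kinesin-6 from 1.17% and 1.11% to 4.24% and 4.80%. Kinesin-14, which holds KIFC1, KIFC2 and KIFC3, went from 40.2% and 41.7% to 25.1% and 23.1%. The summed TPM of all kinesins was 298 and 300 in shNT and 578 and 661 in shGLUD1.

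**Figure D4:**
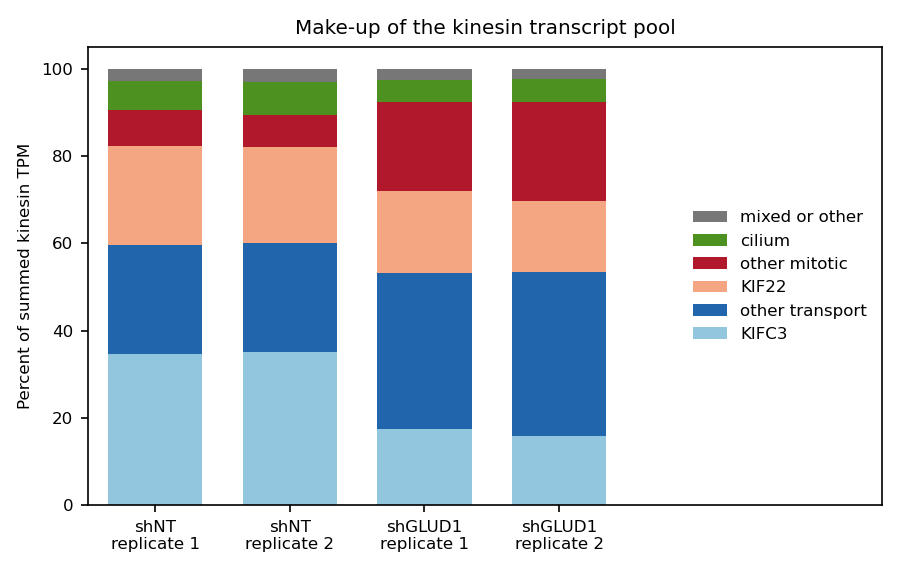
Stacked bars of the percent of summed kinesin TPM in each of the 4 libraries, with the most abundant transport (KIFC3) and mitotic (KIF22) genes drawn apart from the rest of their classes. KIFC3 goes from 34.6% and 35.2% of the bar in shNT to 17.4% and 15.9% in shGLUD1, while the other mitotic and other transport parts widen.

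Transcript length moved with the change over all genes and has to be read beside the transport class. Median log2 fold change was 0.09 for genes shorter than 1500 nt, 0.49 from 1500 to under 3000 nt, 0.82 from 3000 to under 6000 nt and 0.94 from 6000 nt upwards. Tested transport kinesins had a median longest coding transcript of 6103 nt (3427 to 10669) and mitotic kinesins one of 3723 nt (2505 to 6419). Over the 13 transport kinesins log2 fold change and log2 length had a Pearson r of 0.72, over the 11 mitotic kinesins -0.42, and over all genes 0.36; the points share the same 4 libraries and no p is given. KIFC3 (3427 nt) and KIFC2 (3646 nt) are the shortest transport transcripts and KIF20A (3201 nt), KIFC1 (2706 nt) and KIF2C (2955 nt) are among the shorter mitotic ones. The shortest tested mitotic transcript is that of KIF22 (2505 nt), whose log2 fold change was 0.68.

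With the trends in length and GC content removed, 8 of 11 mitotic kinesins were called higher and none lower. Of 13 transport kinesins, 7 were called higher and 1 lower. Of the 12258 genes tested this way, 2878 (23.5%) were called higher and 2793 lower. KIF20A, KIFC1 and KIF2C then had log2 fold changes of 2.22, 1.91 and 1.68. KIF5A, KIF13B, KIF3B and KIF1C had 1.17, 0.94, 0.88 and 0.87, and all 7 of these genes passed the limma test. KIF5C, KIF16B, KIF3C and KIFC2 lost their calls, with values of 0.36, 0.22, 0.29 and 0.04. Of the mitotic kinesins, KIF15 (-0.23) and KIF18A (0.15) lost theirs. Length and GC were assigned from the annotation and not from the transcripts expressed, and their part in the result was not otherwise tested.

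**Figure D5:**
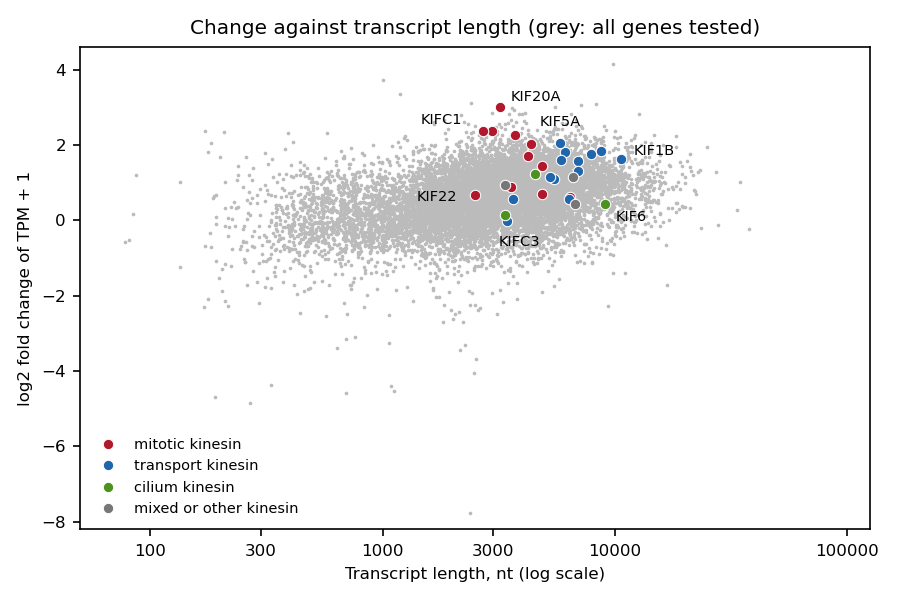
Log2 fold change of TPM + 1 against transcript length (log axis) for all genes tested (grey) and the tested kinesins (coloured by class). KIF20A and KIFC1 lie at the upper edge of genes of their length (3201 and 2706 nt), and the longest kinesin transcript is that of KIF1B (10669 nt).

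Of ciliary and other kinesins, fewer were measurable. Of 13, 6 passed the filter and 3 rose on TPM, beside 56.7% of all genes, with 2 higher and 1 lower after rescaling, beside 23.2% and 27.9%. KIF7, a regulator of Hedgehog signalling at the tip of the cilium, was at 4.15 and 4.02 TPM in shNT and at 10.45 and 11.26 TPM in shGLUD1 (log2 fold change 1.22, limma adjusted p = 0.000447; rescaled 0.56). KIF9, of motile cilia, was at 14.11 and 17.04 TPM in shNT and at 15.45 and 19.32 TPM in shGLUD1, and with overlapping groups it did not pass on TPM (0.15, adjusted p = 0.484), although rescaled it was lower (-0.57, adjusted p = 0.0112). KIF9 shares up to 178 exonic bases with KLHL18 on the other strand, which was at 50.56 to 73.13 TPM, so its reads are uncertain if strand was ignored. KIF6, also of motile cilia, was at 1.31 and 1.02 TPM in shNT and at 2.30 and 1.54 TPM in shGLUD1 (0.42, adjusted p = 0.171).

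KIF2A, a depolymerase of spindle poles and of neurites, was at 1.22 and 1.71 TPM in shNT and at 3.41 and 3.98 TPM in shGLUD1. It rose on TPM (log2 fold change 0.93, limma adjusted p = 0.00694), but not after rescaling (0.40, adjusted p = 0.132) or without shNT replicate 1 (0.79, 0.0933). It shares up to 116 exonic bases on the same strand with IPO11, at 2.34 and 2.42 TPM in shNT and at 5.53 and 7.95 TPM in shGLUD1, so some of its reads are uncertain. KIF21A, which slows microtubule growth at the cell cortex, was at 0.37 and 0.94 TPM in shNT and at 2.83 and 2.48 TPM in shGLUD1 (1.16, rescaled 0.74). It passed the limma test on both scales, but passed the filter only through its shGLUD1 values. KIF26A, a family member without normal ATPase activity, was at 5.35 and 5.4 TPM in shNT and at 7.20 and 8.0 TPM in shGLUD1 (0.43, adjusted p = 0.0868).

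Of the members under a mean of 1 TPM, KIF24 was at 0.38 and 0.34 TPM in shNT and at 0.96 and 1.21 TPM in shGLUD1, and KIF21B at 0.39 and 0.24 TPM in shNT and at 0.79 and 0.92 TPM in shGLUD1. KIF12, KIF25, KIF26B and KIF27 did not exceed 0.60 TPM, and KIF19 was listed at 0 in every library. KIF25 was the only member in which both shGLUD1 libraries (0 and 0.20 TPM) were below both shNT libraries (0.34 and 0.30 TPM).

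Partners of the motors were counted from lists drawn up by textbook role, beside 56.7% of all genes called higher on TPM. Of 17 tested partners and regulators of mitotic kinesins, all rose and none fell, with a median log2 fold change of 1.92. After rescaling 16 were higher and none lower, beside 23.2% and 27.9% of all genes. CENPF (0.26 and 0.36 TPM in shNT) passed the filter only through shGLUD1, so these counts describe the tested members only. The largest changes of this list were in NUSAP1, a spindle microtubule bundler (3.12, rescaled 2.43), TPX2, an activator of Aurora A (2.97, rescaled 2.26), and PRC1, the midzone bundler that binds KIF4A (2.86, rescaled 2.14). RACGAP1, the partner of KIF23 in centralspindlin, was at 4.70 and 5.36 TPM in shNT and at 29 and 36.10 TPM in shGLUD1 (2.47), and INCENP, carried by KIF20A as part of the passenger complex, was at 1.93 and 1.59 TPM in shNT and at 18.37 and 18.63 TPM in shGLUD1 (2.82). CENPE, a kinesin that the symbol rule does not match, was at 0.71 and 0.48 TPM in shNT and at 0.74 and 1.15 TPM in shGLUD1, under the filter. RACGAP1, INCENP, CENPE and CENPF were named after their values were seen.

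Among kinesin light chains and cargo adaptors, 11 of 17 tested rose and none fell on TPM, beside 56.7% of all genes called higher. Their median log2 fold change was 1.14, beside 0.63 over all genes tested. Rescaling left 8 higher and 3 lower, beside 23.2% and 27.9% of all genes. KIFBP, listed as KIAA1279, which binds and inhibits several kinesin motors, rose by 2.14, KIFAP3, the accessory subunit of kinesin-2, by 1.97, and FYCO1, which links late endosomes and autophagosomes to kinesin-1, by 1.80. The kinesin-1 light chains differed, as KLC1 was at 37.15 and 36.26 TPM in shNT and at 83.66 and 131.85 TPM in shGLUD1 (1.49), whereas KLC4 was at 7.30 and 8.94 TPM in shNT and at 8.58 and 8.04 TPM in shGLUD1 (0.03, limma adjusted p = 0.886). RHOT1 (0.48 and 0.59 TPM in shNT) passed the filter only through shGLUD1, so the counts of this list describe its tested members only. KLC1, KLC4 and RHOT1 were named after their values were seen.

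Dynein, the motor that runs the other way on microtubules, was counted with dynactin and its regulators. On TPM 19 of 24 tested genes rose and none fell (median log2 fold change 0.82), beside 56.7% of all genes called higher (median 0.63). Rescaling left 8 higher and 4 lower (median 0.11), beside 23.2% and 27.9% of all genes. The largest increases were in NDE1, a dynein regulator of mitosis (2.31), DYNC1I2, an intermediate chain (2.08), and DYNC1LI2, a light intermediate chain (1.84), all called by limma. The median of the transport kinesins after rescaling, 0.98, stands beside this 0.11 and beside 0.49 for the light chains and adaptors. With length and GC trends removed these medians were 0.62, 0.12 and 0.22. KIF1B, KIF3A, KIF5C and KIF16B, and RHOT1 among the adaptors, passed the filter only through shGLUD1, so those medians are partly set by the filter. No test was made between lists.

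Of 11 tested genes of the DREAM, MuvB and FOXM1 group, 9 rose and none fell on TPM, beside 56.7% of all genes called higher. Rescaling left 5 higher and 1 lower, beside 23.2% and 27.9%. RBBP4, a histone-binding subunit of MuvB, rose by 1.84, FOXM1, the transcription factor of the G2 and M programme, by 1.80, and RBL2, the pocket protein p130 of DREAM, by 1.56. FOXM1 was at 7.96 and 5.88 TPM in shNT and at 26.86 and 25.84 TPM in shGLUD1, with a rescaled value of 1.10. LIN54, the subunit that contacts the CHR, was under the filter at 0.25 and 0.15 TPM in shNT and at 1.07 and 1.36 TPM in shGLUD1. RBL1 (0.44 and 0.33 TPM in shNT), RBL2 (0.88 and 1.02 TPM) and LIN9 (1.11 and 0.8 TPM) passed the filter only through shGLUD1. The counts of this list therefore describe its tested members only. LIN54, RBL1 and LIN9 were named after their values were seen.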

How the data were processed

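RNA of 4 libraries was sequenced after TruSeq V2 library preparation, per the labels' protocols. The authors deposited 1 table of TPM, written to 2 decimals, each column scaled to a fixed sum. Bowtie 0.12.2, hg38 and mm8 are named, per the submitters' processing notes, without a role. Quantifier and annotation, not given in the sources used here, remain unknown. Since TPM share a fixed sum, less of an abundant transcript raises every other value.

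Groups came from the titles. The 12524 genes averaging 1 TPM or more were analysed as log2(TPM + 1) with limma 3.58.1 in R 4.3.3 (eBayes, variance trend, only the group in the model), two-sided, with Benjamini-Hochberg adjustment over all genes tested and 0.05 as the threshold; limma borrows spread across genes. The fit was tested on simulated data. Rescaled values divide each library by its median ratio (log2 factors -0.38 and -0.37 for shNT, 0.29 and 0.50 for shGLUD1). Length, GC content and positions came from GENCODE release 29 on GRCh38 (97.9% of genes tested), with a loess fit per library (span 0.4). Promoters came from RefSeq (GRCh38.p14), where 34 kinesins had an entry. Python 3.11.15 with pandas 2.3.3 and matplotlib 3.10.9 made tables and figures.

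Every kinesin averaging 1 TPM or more was named with its values and the rest by range, and of each partner list the 3 passing members with the largest change. Members, classes and lists were chosen with earlier results of these data known. Alternatives were other pseudocounts, filters and scalings, no variance trend, a replicate block, removal of length and GC trends, and leaving out each library. For the class comparison KIF2A was also counted as mitotic, and kinesin-2 left out of transport.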

Additional observations from a re-analysis of the deposited data

How the results depend on the processing

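With 2 libraries per group the spread of a single kinesin is poorly known, and without read totals no detection limit can be given. The replicate numbers are not stated to mark shared cultures. Deviations of same-numbered libraries correlated at 0.039 across genes. With the replicate block 7395 genes were called higher and all 11 tested mitotic kinesins, KIF20B included (0.61, limma adjusted p = 0.0429), against 10 without it.

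All genes called higher numbered 7105 on TPM, 4676 among genes averaging 5 TPM or more, 2910 after median-ratio rescaling, 2938 once quantile-normalized and 2878 without trends in length and GC. Among genes averaging 5 TPM or more, 6 mitotic, 5 transport and 1 of the ciliary and other kinesins were called, since fewer were tested. Quantile normalization called 1 ciliary or other kinesin, KIF9, as lower and none as higher, and with length and GC trends removed 7 transport kinesins were called higher; the cause was not tested. The difference of class medians, 0.13, was 0.45 with a pseudocount of 0.1 TPM, 0.97 for genes averaging 5 TPM or more and 0.42 with length and GC trends removed, and ran from -0.01 to 0.34 with each library left out. It was 0.0 with KIF2A counted as mitotic and 0.12 with kinesin-2 left out of transport. The mitotic share of kinesin TPM differed by 9.0 percentage points, 10.25 over genes averaging 5 TPM or more, and 14.77 in a pool without KIFC3 and KIF22, chosen after seeing the data.

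The GLUD1 value was -0.83 rescaled, -0.75 quantile-normalized and -0.92 with length and GC trends removed, all called, and ran from -0.37 to 0.15 with each library left out. Values changed sign, after rescaling, in KIF22 (-0.08), KIF26A (-0.23), KIF6 (-0.03), KIF9 (-0.57) and KIFC2 (-0.16). They did so after quantile normalization in KIF20B (-0.02), KIF26A (-0.35), KIF3A (-0.06), KIF6 (-0.19), KIF9 (-0.50) and KIFC2 (-0.10). With length and GC trends removed they did so in KIF15 (-0.23), KIF20B (-0.05), KIF26A (-0.26), KIF3A (-0.25), KIF6 (-0.54) and KIF9 (-0.55). Only KIF9 among these was called in its new direction. KIF9 ran from -0.01 to 0.30 and KIFC3 from -0.05 to 0.01 with each library left out. Quantile normalization ended the calls of KIF7, KIF15, KIF16B, KIF18A, KIF21A, KIF2A and KIFC2, and fitting without a filter those of KIF15, KIF16B, KIF18A and KIFC2. Of the 30 tested kinesins, all kept direction and call with a pseudocount of 0.1 TPM.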
